A study of Mus musculus with 4 samples.

Results

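The genes described here are 36 genes of the cell division cycle, 36 of the 37021 gene names on the array: the cyclins and their kinases, the transcription factors that drive them, the enzymes that license and copy DNA, and the kinases, checkpoint proteins and chromosome proteins of mitosis. A gene was included where the name given to a non-control probe was on the list, which gave 63 probes. There were 16 genes with several probes and 20 with 1, and for each gene the probe with the highest mean signal over the 4 arrays stood for the gene. Membership rests on gene names and no measured value, while the choice of probe uses the signal. The list itself was chosen with earlier results of these data known.

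The arrays measured liver RNA of wild-type C57BL/6 mice, 6 weeks old, of both sexes. Aristolochic acid I (AAI), a plant nitro compound that damages the kidney and forms DNA adducts, was dissolved in corn oil and injected into the peritoneum on 5 days per week for 3 weeks. Female mice received 5 mg/kg/day and male mice 2 mg/kg/day, and control mice of each sex received corn oil. Equal amounts of RNA from 5 mice were pooled for each of the 4 groups, and each pool was hybridised once, to 1 array of a single slide. There were thus no replicates, and no p-value, standard error or standard deviation between mice can be given for any value. Sex and AAI dose changed together, so they cannot be told apart where AAI-treated males are set against AAI-treated females or the AAI ratios of the sexes against each other.

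In a resting cell the pocket proteins hold the E2F factors inactive. Cyclin D with Cdk4 and then cyclin E with Cdk2 release E2F, which turns on the genes for DNA replication, and later a complex of MYB-type factors with FOXM1 turns on cyclin B, Cdk1 and the other genes of mitosis. The adult liver is a quiescent organ in which few hepatocytes divide, yet it can re-enter the cycle as a whole after loss of tissue or toxic injury. DNA damage can halt the cycle through p53 and the CDK inhibitor p21, the product of Cdkn1a.

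The promoters of 3 genes are shown because they carry some of the letters through which genes of the cycle are known to be switched on together. Motifs were searched on both strands. Capitals mark CCAAT (the CCAAT box, ATTGG on the other strand) and TTTGAA or TTCGAA (forms of the cell cycle homology region). They also mark GCGGGAA or GCGCGAA (E2F cores, with TTCGCGC the second on the other strand). Of the letters searched, Cdk1 held all 3 kinds, Mcm6 held CCAAT and an E2F core, and Ccnb1 held CCAAT alone. Other forms of these elements were not searched, so a missing mark does not show that a promoter lacks the element. The sequences are the 250 bases before the transcription start from RefSeq on GRCm38.p6, 5′ to 3′ on the gene's own strand, which is the minus strand for all of them. They lie at chr13:100786487-100786736 for Ccnb1, chr10:69352913-69353162 for Cdk1 and chr1:128359706-128359955 for Mcm6.
Ccnb1: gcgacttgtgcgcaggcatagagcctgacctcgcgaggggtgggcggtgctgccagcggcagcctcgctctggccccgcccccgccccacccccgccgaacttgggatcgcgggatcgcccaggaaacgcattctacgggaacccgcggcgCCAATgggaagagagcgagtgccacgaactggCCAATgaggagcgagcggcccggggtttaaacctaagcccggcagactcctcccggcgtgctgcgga
Cdk1: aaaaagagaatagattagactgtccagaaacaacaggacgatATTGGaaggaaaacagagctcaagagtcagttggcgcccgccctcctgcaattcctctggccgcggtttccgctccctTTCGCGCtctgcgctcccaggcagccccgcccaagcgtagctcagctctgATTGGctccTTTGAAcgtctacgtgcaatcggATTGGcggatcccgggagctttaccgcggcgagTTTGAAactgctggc
Mcm6: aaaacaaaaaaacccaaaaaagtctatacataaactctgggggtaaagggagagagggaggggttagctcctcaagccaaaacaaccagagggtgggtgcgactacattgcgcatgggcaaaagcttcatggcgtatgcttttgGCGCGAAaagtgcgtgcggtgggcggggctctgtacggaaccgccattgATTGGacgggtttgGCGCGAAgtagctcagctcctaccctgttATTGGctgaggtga

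The RefSeq promoter table used here gave windows for 29 of the 36 genes, 31 in all, each reaching from 250 bases before to 50 bases after the start. CCAAT was found in 23 of these windows (74.19%), against 37.41% of all 32851 promoters in the table. TTTGAA was found in 12 (38.71%, against 17.89%) and TTCGAA in 4 (12.9%, against 1.562%). GCGGGAA was found in 7 (22.58%, against 4.6%) and GCGCGAA in 4 (12.9%, against 1.589%). The genes with TTTGAA or TTCGAA were mostly those of mitosis, among them Cdk1, Ccnb2, Aurka, Plk1, Cdc20 and Kif11, while the E2F cores were found in Cdc6, Cdt1, Cdk2, Rrm1, Cdk1, Mcm3, Mcm5, Mcm6 and Mcm7. These are matches of letters and not mapped binding sites.

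The signal of each probe was taken as log2 of the processed intensity after quantile normalization of the 4 arrays, so that 1 unit is a 2-fold difference. A gene was given a ratio where its probe was well above background, by the scanner software's mark, on either array of a comparison. If the other array was dim, the ratio is a bound against the lowest level detectable on that array. A gene was counted as higher or lower from a log2 ratio of 1. The scale of error available is technical: probes of the same gene differed from each other by a median SD of 0.252 log2 units in the female ratio, over 9128 genes with several probes, and of 0.238 in the male ratio, over 8618 genes. Spots printed repeatedly on 1 array differed by a median SD of 0.0451 to 0.0845.

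Between 74.7% and 81.5% of all probes were well above background on the 4 arrays, and no spot was saturated. All 8 hepatocyte markers were above background on every array, and their summed signal differed by 0.10 log2 units between AAI- and corn oil-treated females and by 0.04 in males. Markers of other tissues were not even. All 6 skeletal muscle markers were at least 2-fold higher in both AAI pools (summed log2 ratio 6.69 in females and 6.21 in males). Of 5 brown fat markers, 2 were higher in AAI-treated females and 4 in AAI-treated males, and in males so were 4 of 5 adrenal cortex and 3 of 5 adrenal medulla markers. The 5 stellate cell markers summed to a log2 ratio of 0.51 for females and 1.64 for males, but did not move together. In females 2 were above 0 and 3 below, from -0.30 to 1.65 with a median of -0.03. In males 3 were above 0 and 2 below, from -0.97 to 4.55 with a median of 0.39. The 7 markers of neutrophils and their precursors summed to 0.24 and 0.96, and the 5 B cell markers to -0.56 and -0.72. The 6 Kupffer cell and macrophage markers summed to 16.26 and 15.21 in corn oil- and AAI-treated females and to 16.18 and 15.44 in males, a summed log2 ratio of -1.05 and -0.75. Of the 10 erythroid markers, 5 were at least 2-fold lower in AAI-treated males and none in females, where 1 was at least 2-fold higher. Of those with a ratio, 8 of 9 were below 0 in males and 6 of 8 in females. The 10 markers had a summed log2 ratio of -1.93 in males and -0.43 in females. Their sum was 17.78 and 18.21 in AAI- and corn oil-treated females, and 15.92 and 17.85 in males, and Rhag was dim on every array but that of corn oil-treated males. The part of these other cells in the cell cycle values below was not tested. In such pooled tissue RNA, fewer cells of a type and less RNA per cell cannot be told apart.

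Few of the cell cycle genes reached a 2-fold difference between AAI- and corn oil-treated livers. In females, none of the 34 genes with a ratio was 2-fold higher or lower, where 1.37% of all 31682 genes measured were higher and 3.09% lower, 4.46% in all. In males, none of 35 was higher and 2 were lower, Ccnb1 and Ccne2, where 3.51% of all 30539 genes were higher and 4.59% lower, 8.1% in all. These counts lie near the shares of the whole array and are no result about the list. The median log2 ratio of the list was -0.18 in females, against 0.04 for all genes, and 0.01 in males, against 0.00. In females, 22 of the 34 genes were below 0 and 12 above. In males, 15 were below and 19 above. Within 0.5 log2 units of 0 lay 91.2% of the list in females, against 76.1% of all genes, and 88.6% in males, against 73.6%. Within 0.25 lay 38.2% of the list in females, fewer than the 45.7% of all genes, and 62.9% in males, against 46.3%. More of the list than of all genes thus lay within 0.5 log2 units of 0 in both sexes. In females the typical ratio of the list was no smaller than that of the array, with a median size of 0.30 against 0.28.

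**Figure D1:**
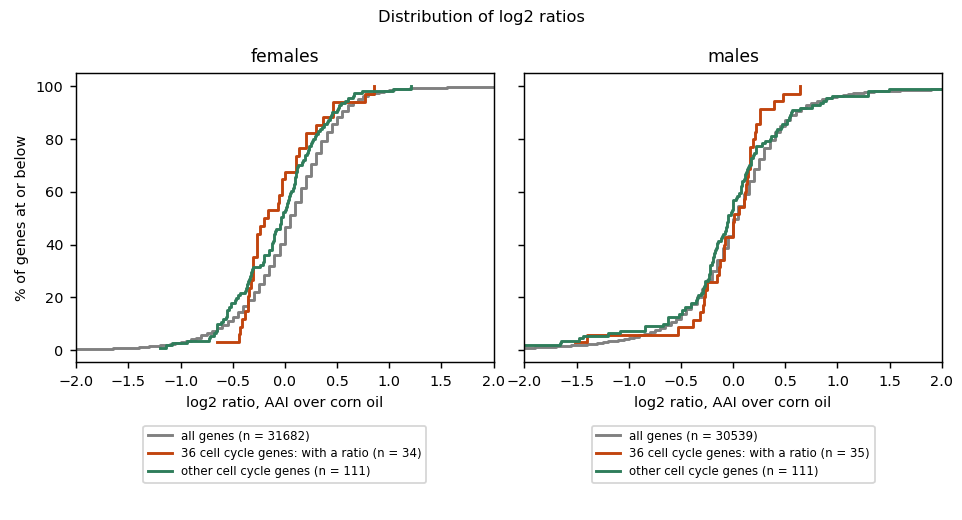
Cumulative share of genes (y axis, %) at or below each log2 ratio of AAI over corn oil (x axis), in females (left) and males (right), for all genes with a ratio, for those of the 36 cell cycle genes with a ratio and for the other cell cycle genes. Within 0.5 log2 units of 0 lie 91.2% of the list in females and 88.6% in males. In males the lower tail of the list is not shorter, with 5.7% at or below -1, against 4.59% of all genes. In females the middle of the list's curve lies to the left, with a median of -0.18.

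Of the 36 genes, 32 were well above background on all 4 arrays. Bub1 was above background on none, and Ccne2, Bub1b and Kif11 on some. Over the 32 genes, the highest and the lowest of the 4 arrays were a median of 0.46 log2 units apart, 20 genes stayed within 0.5 and 3 reached 1 or more (Ccnb1, Rrm2 and Ccne1). The lowest value fell on the array of AAI-treated females for 18 of the 32 genes, and the highest on that of AAI-treated males for 13. The array of AAI-treated females was also the 1 array whose deposited intensities held no trend correction, and every female ratio uses it. The part of this difference in processing was not tested for these counts. Of the 32 genes, 13 had the same sign in both sexes, 13 were below 0 in females and above 0 in males, and 6 were the reverse. Pearson's r between the female and male log2 ratios was 0.12 and Spearman's rho 0.12 over these 32 genes, which share their arrays and their normalization.

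**Figure D2:**
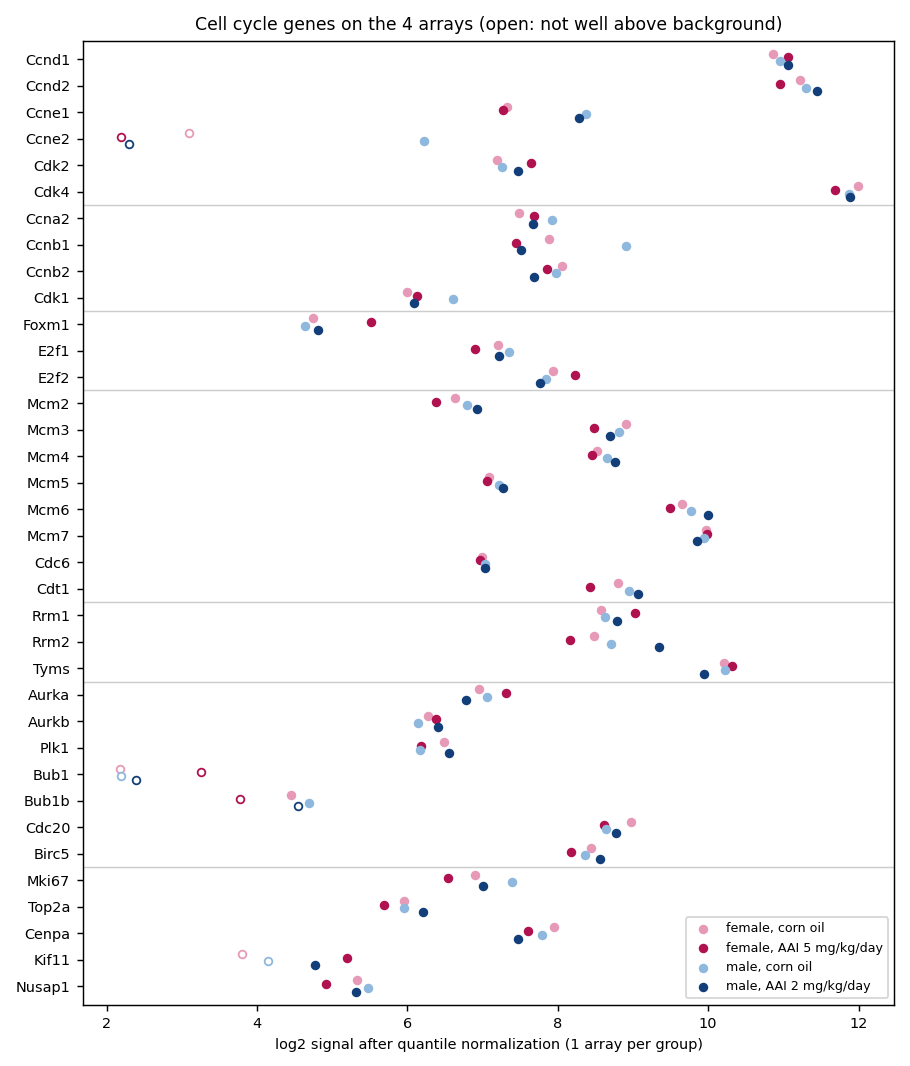
Log2 signal (x axis) of the brightest probe of each of the 36 genes (y axis, grouped by role from G1 cyclins at the top to chromosome and spindle genes at the bottom) on the 4 arrays, 1 point per array. Filled points were well above background and open points were not. For most genes the 4 points lie close together, and Ccne2 and Ccnb1 stand out by their value in corn oil-treated males.

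Of the G1 cyclins and kinases, all 5 with a ratio in females and 5 of 6 in males lay within 0.5 log2 units of 0. Ccnd1, which encodes the cyclin D1 that couples growth signals to the cycle, read 10.86 and 11.06 in corn oil- and AAI-treated females and 10.96 and 11.06 in males, a log2 ratio of 0.20 and 0.10. Its relative Ccnd2 and the partner kinase Cdk4 read -0.27 and -0.30 in females and 0.16 and 0.01 in males. Other probes of Ccnd2 gave -0.11 and 0.06 in females and 0.54 and -0.30 in males. Cdk2, the kinase of S phase entry, had a log2 signal of 7.19 under corn oil and 7.65 under AAI in females, and of 7.26 and 7.47 in males. Its female log2 ratio of 0.46 was among the 3 highest of the list, and the male one was 0.21.

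The cyclin E genes, whose products activate Cdk2, separated the male pools from the female pools or 1 pool from the rest. Ccne1 had a log2 signal of 7.33 and 7.27 in corn oil- and AAI-treated females, and of 8.37 and 8.29 in males. Both male arrays thus lay above both female arrays, by 1.04 under corn oil and 1.02 under AAI, while the log2 ratio of AAI over corn oil was -0.06 in females and -0.09 in males. Ccne2 (probe at chr4:11122185-11122244, mm9) was well above background only in corn oil-treated males, at 6.22. In females its signals of 3.10 under corn oil and 2.19 under AAI were dim, and so was the 2.30 of AAI-treated males. It was at least 2.86-fold lower in AAI-treated than in corn oil-treated males, a log2 bound of -1.52, and had no ratio in females. Ccne1 and Ccne2 had 1 probe each, so the values of both genes have no second measurement on the array.

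Among the cyclins and the kinase of S phase to mitosis, all 4 log2 ratios were below 0 in males, with a median of -0.41, and 2 of 4 were below 0 in females, with a median of -0.03. Ccnb1, the cyclin B1 that drives entry into mitosis, had a log2 signal of 7.88 under corn oil and 7.45 under AAI in females, and of 8.91 under corn oil and 7.51 under AAI in males. The array of corn oil-treated males was the high one and the other 3 lay between 7.45 and 7.88. The log2 ratio was -0.44 in females and -1.40 in males, 2.64-fold lower. Cdk1, the catalytic partner of cyclin B, had 6.00 and 6.13 in corn oil- and AAI-treated females, and 6.61 and 6.08 in males. It was again highest in corn oil-treated males, and its log2 ratio was 0.13 for females and -0.53 for males. Ccnb2, the other B-type cyclin, differed by -0.20 in females and -0.29 in males, and Ccna2, the cyclin of S phase and G2, by 0.20 and -0.25, differences of the size found between probes of a gene. With its probes averaged, Ccna2 in males was at 0.005, so not all 4 stayed below 0.

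The male value of Ccnb1 was found with 1 of its probes. The brightest probe lies at chr13:101548722-101548781 (mm9, minus strand). Further probes lie at chr13:101551224-101551283 and chr13:101553449-101553508 on the same strand, and are shown because they were above background on all arrays and gave other ratios.
A_55_P1952256: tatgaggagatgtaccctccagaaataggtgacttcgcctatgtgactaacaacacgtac
A_55_P2128668: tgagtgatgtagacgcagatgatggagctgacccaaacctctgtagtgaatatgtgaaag

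The first of these, A_55_P1952256, read 5.46 and 5.87 in corn oil- and AAI-treated females and 5.77 and 5.78 in males, a log2 ratio of 0.40 and 0.01. The second, A_55_P2128668, read 5.45 and 4.85 for females and 5.38 and 5.01 for males, a log2 ratio of -0.60 and -0.37. Neither had its highest value set apart in corn oil-treated males. The brightest probe shares the 26 bases TTTAATTTATACATCTGATATCAAGT with a further probe, A_66_P114478, which was not well above background on any array. With all probes of the gene averaged, the male log2 ratio of Ccnb1 was -0.37.

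**Figure D3:**
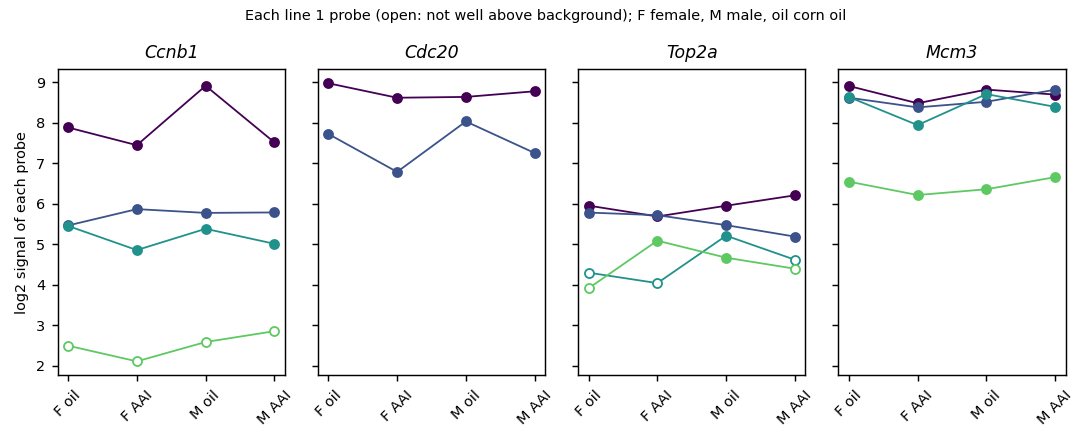
Log2 signal (y axis) of every probe of Ccnb1, Cdc20, Top2a and Mcm3, 1 line per probe, on the 4 arrays (x axis: F female, M male, oil corn oil). Open points were not well above background. The drop from corn oil- to AAI-treated males in Ccnb1 is seen with the brightest probe (8.91 to 7.51) and is small or missing with the others, while all probes of Mcm3 are lower in AAI-treated females.

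The transcription factors of the cycle were measured at modest differences. Foxm1, which activates the genes of mitosis, had a log2 signal of 4.75 under corn oil and 5.51 under AAI in females, and of 4.64 and 4.80 in males. AAI-treated females were the highest of the 4, and the female log2 ratio of 0.76 was the largest increase of the list measured on both arrays, against 0.16 in males. A second Foxm1 probe gave 0.46 and 0.47, and the third was above background on 1 array. With normexp background correction the female value of Foxm1 fell to 0.21, and with its probes averaged to 0.32. E2f1, an activator of S phase genes, differed by -0.31 in females and -0.13 in males. E2f2, of the same class, differed by 0.29 and -0.07, and by 0.50 and -0.86 with a second probe.

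The 8 genes of origin licensing and the replicative helicase had male log2 ratios from -0.12 to 0.22, with a median of 0.09. In females 7 of 8 were below 0, with a median of -0.11, though Mcm5 and Cdc6, near 0, turned above 0 with 75th percentile scaling and Mcm7 below it. Mcm3, a subunit of the MCM helicase, had a log2 signal of 8.91 and 8.48 in corn oil- and AAI-treated females and of 8.82 and 8.70 in males. All 4 Mcm3 probes were lower in AAI-treated females, by 0.24 to 0.69, while in males they ranged from -0.32 to 0.30. Cdt1, which loads the helicase onto origins, differed by -0.38 in females and 0.12 in males. The other helicase genes had female and male log2 ratios of -0.24 and 0.14 for Mcm2 and of -0.16 and 0.22 for Mcm6, whose male value was -0.31 when averaged with a second probe that was dim on all arrays. Mcm4, Mcm5, Mcm7 and the loading factor Cdc6 lay within 0.12 of 0 in both sexes. Motifs in the Mcm6 promoter shown above thus stand beside a gene whose signal spanned 0.51 log2 units over the 4 arrays.

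Of the genes that supply deoxynucleotides, Rrm1 and Rrm2 encode the large and the small subunit of ribonucleotide reductase, and Rrm2 is the subunit made in S phase. Rrm1 had a log2 signal of 8.57 and 9.03 in corn oil- and AAI-treated females and of 8.63 and 8.79 in males, a log2 ratio of 0.46 and 0.16. Rrm2 had 8.49 and 8.16 in females and 8.70 and 9.34 in males. AAI-treated males were the highest and AAI-treated females the lowest of the 4, and a female log2 ratio of -0.32 stood beside a male one of 0.64, which made Rrm2 the largest measured increase of the list in males. The probe of Rrm2 was the only one for this gene. Tyms, the thymidylate synthase, differed by 0.11 and -0.28, and its other probes by 0.23 and 0.62 for females and -0.08 and 0.10 for males.

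The mitotic kinases Aurka, Aurkb and Plk1 had female log2 ratios of 0.36, 0.10 and -0.30. Plk1 had a log2 signal of 6.49 and 6.18 in corn oil- and AAI-treated females and of 6.16 and 6.55 in males, so that its ratio was 0.39 in males. Aurkb, the kinase of the chromosomal passenger complex, read 6.28 and 6.38 in females and 6.14 and 6.40 in males, a male log2 ratio of 0.26. Aurka, a spindle pole kinase, had a male log2 ratio of -0.27. Birc5, which encodes the survivin of the same passenger complex, differed by -0.27 and 0.19. By the brightest probe, Aurkb alone of these 4 genes had the same sign in both sexes. A second Birc5 probe gave -0.43 in females and -0.03 in males.

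Of the spindle checkpoint, Bub1 was dim on all arrays, with measured signals of 2.18 to 3.26, and no ratio was taken. Bub1b was above background under corn oil in both sexes, at 4.46 in females and 4.69 in males, and dim under AAI, at 3.77 and 4.54. Its bounds were -0.65 in females and 0.00 in males, the latter leaving no detectable difference at this signal. Cdc20, the activator of the anaphase-promoting complex, read 8.98 and 8.62 in females and 8.64 and 8.78 in males, a log2 ratio of -0.36 and 0.14. A second Cdc20 probe gave -0.94 and -0.78, with its higher values under corn oil in both sexes, so the probes of Cdc20 differed in sign in males.

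The chromosome and spindle genes were mostly below 0. Mki67, the Ki-67 antigen used to score dividing cells, had a log2 signal of 6.90 and 6.55 in corn oil- and AAI-treated females, and of 7.39 and 7.01 in males. It was lower under AAI in both sexes, by a log2 ratio of -0.35 and -0.38, and so was the centromeric histone Cenpa, with -0.34 and -0.32. Nusap1, a spindle protein, had 5.32 and 4.92 in females and 5.47 and 5.32 in males, a log2 ratio of -0.41 and -0.15. Top2a, the topoisomerase of S phase to mitosis, differed by -0.27 and 0.26. Its other probes did not settle a direction: one gave -0.06 and -0.28, one a bound of 0.74 in females and the last a bound of -0.51 in males. Kif11, a motor of the spindle, was above background only under AAI, at 5.20 in females and 4.77 in males, against dim signals of 3.80 and 4.15 under corn oil. It was at least 1.81-fold higher in AAI-treated females and at least 1.39-fold higher in AAI-treated males, bounds of 0.86 and 0.48, and had 1 probe. With each array scaled to its 75th percentile, the female bound was 1.03. Mki67 and Kif11, both genes of dividing cells, thus went opposite ways in both sexes.

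**Figure D4:**
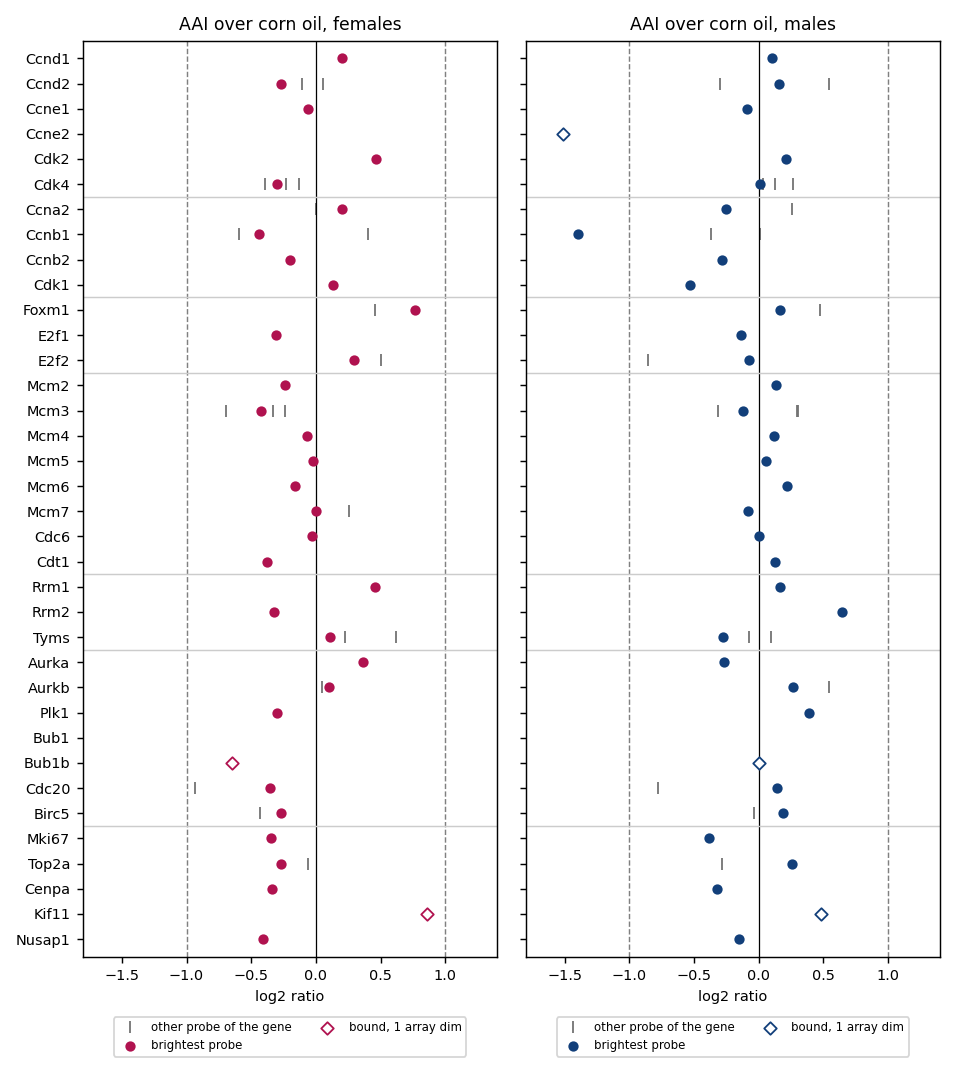
Log2 ratio of AAI over corn oil (x axis) for each of the 36 genes (y axis), in females (left) and males (right). Filled circles are the brightest probe, open diamonds are bounds with 1 array dim, grey ticks are other probes of the gene, and dashed lines mark a 2-fold difference. In females no circle reaches a dashed line, and in males Ccnb1 (-1.40) and the bound of Ccne2 (-1.52) do.

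The corn oil pools were compared with each other because both male calls were high in that pool. Of the 34 genes with a ratio, 3 were at least 2-fold higher in corn oil-treated males than in corn oil-treated females (Ccne1, Ccne2 and Ccnb1) and none was lower, where 3.83% of all 30891 genes measured were higher and 1.86% lower, 5.69% in all. The differences were 1.04 for Ccne1, at least 1.87 for Ccne2 and 1.03 for Ccnb1, and the median of the list was 0.09, against -0.03 for all genes. The comparison shares the corn oil-treated male array with the male ratios, so a high value on this 1 array enters both. The 2 AAI pools differed by 0.07 for Ccnb1.

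A wider list of 118 cell cycle genes on the array, in which none of the 36 is repeated, gave 111 genes with a ratio in each sex. In females 2 were at least 2-fold higher and 3 lower, with a median of -0.03, where all genes gave 1.37% higher and 3.09% lower. In males 4 were higher and 8 lower, with a median of -0.05, where all genes gave 3.51% higher and 4.59% lower. The counts in females and the higher genes in males lie near these shares. The 8 lower genes in males fell to 4 with probes averaged, and the list was chosen with earlier results known. None of these counts is read as a result about the list. Over the 111 genes, 73.0% in females and 72.1% in males lay within 0.5 log2 units of 0, close to the share of all genes. In females the genes were Uhrf1, an S phase partner of the maintenance DNA methyltransferase, at 1.21, the oncogene Myc at 1.03, the kinetochore gene Ndc80 at a bound of -1.20, the microtubule regulator Stmn1 at -1.14, and Cdkn1a at -1.08. The plan named up to 4 genes of this list per sex by size of ratio, so these too were picked by value. Named beyond that plan, after values were seen, were Myc and, in males, all genes of the wider list other than E2f4, E2f8, Mcm10 and Nek2. Other probes of Uhrf1 and Myc gave 0.15 and 0.51 in females, and those of Stmn1 gave -0.61 and 0.83.

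In males the 8 lower genes were the repressor E2f8 (-2.33), the replication factor Mcm10 (-2.14), the centrosome kinase Nek2 (a bound of -1.66), the kinetochore genes Spc25 (-1.65) and Cenpk (-1.48), the damage kinase Atm (-1.44), the F-box cyclin Ccnf (-1.20) and the cohesin protector Sgol1 (-1.08). Together with Ccnb1 and Ccne2 they made 10 genes, and in all 10 the corn oil-treated males had the highest of the 4 arrays. In 9 of the 10 that array was at least 2-fold above the corn oil-treated females as well. The 10 genes were taken because this array lay at least 2-fold above that of AAI-treated males, so its high rank was partly fixed by the choice. The same counts were not made over all genes lower in males. Both comparisons use this array, so the counts do not bear on each other and are no result about these genes. E2f8 had a log2 signal of 8.02 and 7.37 in corn oil- and AAI-treated females and of 10.39 and 8.06 in males, the same shape as Ccnb1. Spc25 read 10.70 and 10.03 in females and 12.13 and 10.48 in males, and its second probe gave nearly the same male log2 ratio, -1.75. For several of the others a second probe gave much less: -0.09 for Mcm10, -0.33 for Atm, -0.02 and -0.12 for Cenpk, 0.26 and 0.42 for Ccnf and 0.22 for Sgol1. A second E2f8 probe gave -0.89.

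The 4 genes that were higher in AAI-treated males were E2f4, Myc, Cep55, a gene of the last step of cell separation, and Gadd45a, a DNA damage response gene. Myc had a log2 signal of 7.88 and 8.92 in corn oil- and AAI-treated females and of 6.94 and 8.43 in males, log2 ratios of 1.03 and 1.49, so both AAI pools were above both corn oil pools. A second Myc probe gave 0.38 in males. Cep55 and Gadd45a had male log2 ratios of 1.29 and 1.29 and female ones of -0.32 and 0.36, from 1 probe above background each. E2f4 had 1 probe, at 12.04 in AAI-treated males and between 6.24 and 6.86 on the other arrays.

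The CDK inhibitors, which hold the cyclin-dependent kinases in check, were the group furthest from 0 in males. All 7 were above 0, against 50.3% of all genes, with a median log2 ratio of 0.76, and none was 2-fold higher. Cdkn1b, at 0.17, turned to -0.20 with its probes averaged. Cdkn2b had 0.95, Cdkn1a 0.89 and Cdkn1c 0.84. Between the corn oil pools, 6 of the 7 were lower in males than in females, with a median log2 difference of -0.32. That comparison shares the corn oil-treated male array with the male ratios, so a low value on this 1 array enters both. For AAI over corn oil in females, 6 of 7 were above 0, against 53.5% of all genes. Their median was 0.26, and Cdkn1c, at 0.65, was the highest. Cdkn1a, the gene of p21, had a log2 signal of 10.83 and 9.75 in corn oil- and AAI-treated females and of 8.62 and 9.51 in males with its brightest probe. Its other probes read higher under AAI in both sexes, by 0.35 and 1.01 in females and 0.75 and 1.07 in males, so that the female decrease was seen with 1 of 3 probes.

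**Figure D5:**
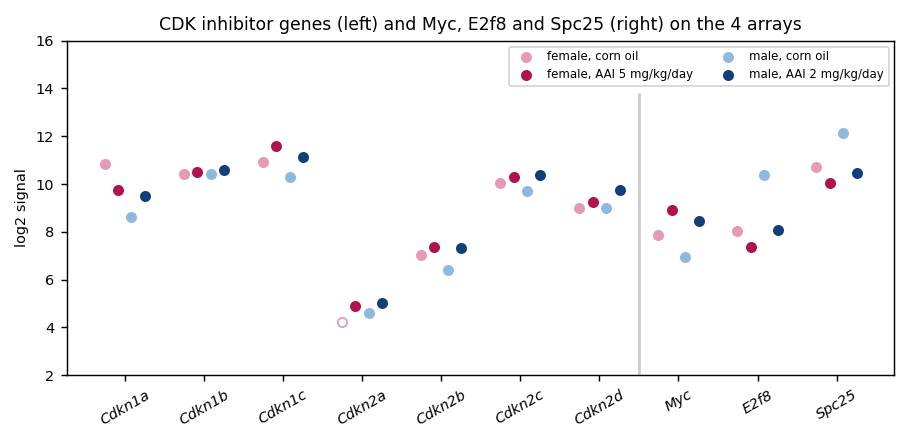
Log2 signal (y axis) of the brightest probe of 7 CDK inhibitor genes (left of the line) and of Myc, E2f8 and Spc25 (right) on the 4 arrays, 1 point per array. The open point was not well above background. In males each inhibitor is higher under AAI, Myc is higher under AAI in both sexes, and E2f8 and Spc25 are highest in corn oil-treated males.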

How the data were processed

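The authors quantified the spots of 1-colour Agilent mouse arrays, annotated on mm9, with Feature Extraction 10.5.1.1 and deposited the intensity of each spot, background-subtracted and, on 3 of the 4 arrays, corrected for trends, plus a table of normalized intensities after their quantile normalization. The array not corrected for trends was that of AAI-treated females. The software's marks of background, saturation and outliers were also used. Here, log2 of the processed intensity was taken without control and outlier spots, spots of a probe were averaged, and 56495 of 56605 probes were quantile-normalized over 4 arrays (limma 3.58.1 in R 4.3.3). The arrays of females under corn oil and males under AAI hold values of fewer digits, and 70 gene names on each that read as dates were replaced, by probe, from another array. The members and lists were chosen with earlier results of these data known. Members were described on every array where they were 2-fold different, had probes of opposite sign 1 or more apart, or were among the 3 highest or lowest ratios of a sex. Others were given by role, with up to 4 examples. Outside the list the plan was at most 4 genes per sex by size, and more were named after their values were seen. Marker lists of cell types were summed on the linear scale. Ratios were not tested, since each group had 1 array, and this number limits their precision. The calculation was tested on simulated data. Alternatives were the 75th percentile, normexp, the authors' normalized intensities, averaged probes, other background filters, no trend correction, leaving out replaced spots, and thresholds of 1.5- and 3-fold.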

Additional observations from a re-analysis of the deposited data

Results flagged for a closer look

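For 2 genes of the wider cell cycle list the log2 ratio of AAI over corn oil was below 0 in one sex and above 0 in the other by at least 0.5. Cdkn1a had -1.08 in females and 0.89 in males, and its other, much dimmer probes were above 0 in both sexes. E2f4 had -0.62 in females and 5.40 in males, on a single probe. Each rests on 1 array per group, and the differences between the sexes were not tested.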

How the results depend on the processing

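Over 8 alternatives to the processing, 19 of 547 ratios of the 36 genes, from 11 genes, took the opposite sign, none of them further than 0.27 from 0 at first, and 22 moved by as much as the spread between probes. With probes averaged, Top2a went from -0.27 to 0.146 in females and from 0.26 to -0.223 in males, and Cdc20 from 0.14 to -0.32 in males. The median log2 ratio of the list ranged from -0.184 to -0.067 in females and from 0.005 to 0.068 in males. The male value of Ccnb1 ranged from -1.44 to -0.37 and that of Ccne2 from -3.92, without a filter on dim probes, to -0.89. The count of the 36 genes at least 2-fold higher in females rose from 0 to 1 with 75th percentile scaling and to 2 without a filter on dim probes. The count lower in males fell from 2 to 0 with normexp background correction, and to 1 with probes averaged or with both arrays above background. With the threshold at 1.5-fold, females had 2 higher and 1 lower and males had 1 higher, and at 3-fold 0 were lower in males. Of the other cell cycle genes, females had 2 higher and 3 lower, and males had 4 higher and 8 lower. With normexp these became 0 and 0 in females, and 2 higher in males. With probes averaged they became 0 and 1 in females, and 1 and 4 in males. Without trend correction 1 was higher in females. At 3-fold they were 0 and 0 in females, and 1 and 4 in males. At 1.5-fold they were 6 and 13 in females, and 10 and 14 in males. Cdkn1a in females reversed to 0.093 when its brightest probe was averaged with its much dimmer ones. For these the cause was not tested beyond the change of threshold or filter itself. No paired analysis was possible because each group had 1 array. For the same reason no replicate could be left out. Genes near background, such as Bub1, Bub1b, Ccne2, Kif11 and Foxm1, were limited by signal.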
